A study of Mus musculus with 2 samples.

Results

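The regions described here are the shores of dense, unmethylated CpG tiles in mouse embryonic fibroblasts (MEFs). The genome was divided into tiles of 1 kb. A tile with at least 30 measured CpGs and a median methylation of 10% or less in the Dnmt1+/+ library was called dense and unmethylated. A shore was an autosomal tile directly next to such a tile that held 5 to 19 measured CpGs itself. This rule found 3846 shores, which is 4.44% of the 86569 autosomal tiles with 5 to 19 CpGs, among 347615 tiles with a measured CpG in the whole table. They lay beside 3364 of the 7232 autosomal dense unmethylated tiles, 1953 on the left and 1881 on the right of one, with 12 between a pair of them.

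CpG methylation was measured by reduced-representation bisulfite sequencing (RRBS), in which DNA is cut with restriction enzymes and treated with bisulfite, so that a cytosine still read as cytosine counts as methylated. There were 2 libraries, 1 from Dnmt1+/+ and 1 from Dnmt1-/- MEFs. Both lines also lack trp53, the gene for p53, and Dnmt1-/- is the name the study gives to cells homozygous for a hypomorphic Dnmt1 allele. No genotype had a replicate, so every comparison is between 2 libraries, with counting error only, and each value averages over all DNA copies of a culture. The table held 1790826 CpGs with at least 10 calls in each library, from 74636195 calls in Dnmt1+/+ and 78401157 in Dnmt1-/-, and neither the mutation nor the cell type can be checked in it.

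Dnmt1 copies CpG methylation onto the new DNA strand after replication. In mammalian cells most CpGs are methylated, whereas CpG islands, the CpG-rich stretches that cover many promoters, are usually free of methylation. The flanks of islands, called shores, form the passage from unmethylated to methylated DNA. The edge of a 1 kb tile is a fixed grid line and not the edge of an island, so distances below are measured from that line.

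CpGs in CCGG or TCGA were left out of the values below unless stated otherwise. MspI and TaqI cut at these sequences, but the enzymes used for these libraries are not given in the sources used here. In dense tiles, where the remaining CpGs were almost unmethylated, these sites still averaged 52.4% in Dnmt1+/+ and 52.1% in Dnmt1-/-. The shores held 39816 measured CpGs, of which 12664 (31.8%) were such sites and 27152 were other CpGs. Of the shores, 2585 held at least 5 other CpGs and 5 held 0. The median depth of the other CpGs was 37 calls in Dnmt1+/+ and 35 in Dnmt1-/-. At these depths a CpG with 0 methylated calls allows up to 8.11% and 8.57% methylation, respectively (3 calls).

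As examples, a stretch of 4 shores is printed from the NCBIM37 (mm9) sequence, plus strand, 5′ to 3′, with the measured CpGs outside CCGG and TCGA in capitals. They do not stand for typical shore sequence, and repeats were not annotated. Each was picked by a rule on the size of its change or level: Cnih for a near-complete fall, Tbc1d15 for a low remaining level, Tram2 for a high remaining level and Foxp2 for a rise. The stretches lie at chr14:47406404-47406465 (Cnih), chr10:114687319-114687527 (Tbc1d15), chr1:21070471-21070565 (Tram2) and chr6:14850014-14850258 (Foxp2), and none overlaps an annotated exon.
Cnih: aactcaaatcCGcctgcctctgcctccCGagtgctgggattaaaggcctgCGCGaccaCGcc
Tbc1d15: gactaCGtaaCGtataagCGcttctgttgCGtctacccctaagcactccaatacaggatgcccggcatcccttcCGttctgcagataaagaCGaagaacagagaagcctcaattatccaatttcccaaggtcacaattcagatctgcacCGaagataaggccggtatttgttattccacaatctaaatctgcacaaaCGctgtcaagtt
Tram2: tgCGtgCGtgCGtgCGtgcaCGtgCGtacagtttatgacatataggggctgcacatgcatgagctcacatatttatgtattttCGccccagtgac
Foxp2: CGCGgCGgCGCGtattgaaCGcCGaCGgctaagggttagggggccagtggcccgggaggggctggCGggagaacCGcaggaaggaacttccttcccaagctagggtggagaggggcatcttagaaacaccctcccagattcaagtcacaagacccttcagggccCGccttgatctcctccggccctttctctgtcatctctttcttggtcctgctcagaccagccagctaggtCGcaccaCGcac
The 5 marked CpGs of the Cnih stretch averaged 92.5% in Dnmt1+/+ and 1.93% in Dnmt1-/-, and the 8 of the Tbc1d15 stretch 86.4% and 1.74%. The 7 CpGs of the Tram2 stretch, 6 of them in a short run made mostly of TG and CG pairs, kept 48.1% in Dnmt1-/- against 95.5% in Dnmt1+/+. The 13 CpGs of the Foxp2 stretch were at 12.1% in Dnmt1+/+ and at 41.0% in Dnmt1-/-.

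The shores were low in methylation in both libraries and lower in Dnmt1-/-. Their 27152 CpGs averaged 13.4% in Dnmt1+/+ and 3.97% in Dnmt1-/-, which left 29.6% of the Dnmt1+/+ level. Their medians were 2.86% in Dnmt1+/+ and 0% in Dnmt1-/-. With calls pooled over CpGs, methylation was 9.95% (95% Wilson interval 9.899 to 9.9998%) in Dnmt1+/+ and 3.27% (3.24 to 3.30%) in Dnmt1-/-, and the intervals did not overlap. All intervals on pooled calls given here are too narrow, because neighbouring CpGs share reads. In Dnmt1+/+, 83.3% of shore CpGs were at 20% or less and 6.53% at 80% or more. In Dnmt1-/- these shares were 95.1% and 0.258%. With CpGs in CCGG and TCGA included, the means were 28.5% and 19.6%.

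Fisher's exact test on the calls of each CpG, adjusted over all CpGs of the table, called 3998 of the shore CpGs (14.7%) lower in Dnmt1-/- and 167 (0.615%) higher. Among all autosomal CpGs outside CCGG and TCGA, 44.1% were called lower and 0.627% higher. These shares cover unlike mixes of levels, since 83.3% of shore CpGs and 48.3% of all autosomal CpGs were at 20% or less in Dnmt1+/+. Of the 22623 shore CpGs at 20% or less, 137 (0.606%) were called higher, against 1.02% of the 470412 such autosomal CpGs. On each of the 19 autosomes the shore mean was lower in Dnmt1-/-, with a range of 9.70 to 15.3% in the Dnmt1+/+ library and 3.06 to 5.04% in the other.

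Going outwards from the dense tiles in steps of 1 kb, methylation climbed steeply in Dnmt1+/+ and less so in Dnmt1-/-. Dense tiles averaged 2.61% in Dnmt1+/+, a level fixed by the rule that chose them, and 1.53% in Dnmt1-/-. Tiles of 5 to 19 CpGs that lay 1 tile beyond the dense tile's neighbour averaged 53.0% and 18%. Tiles more than 10 tiles away, called far tiles here, averaged 72.5% and 25%. In between, at 6 to 10 tiles, the means were 67.3% and 25.9%. As a percentage of Dnmt1+/+, the Dnmt1-/- mean was 58.5% in dense tiles and 29.6% in shores. It was 33.9% in the next tile, 37.7% in the one after it, 37.8% at 4 to 5 tiles, 38.5% at 6 to 10 tiles and 34.5% in far tiles, so that it did not climb steadily outwards.

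A finer profile was seen within the shores. In the first 100 bp from the dense tile, 10651 CpGs averaged 4.55% in Dnmt1+/+ and 1.98% in Dnmt1-/-. At 201 to 300 bp the means were 13.6% and 3.87%, and at 501 to 600 bp they were 34.0% and 8.98%. The highest means of the shore were found at 801 to 900 bp, with 45.8% and 12.7% over 677 CpGs, and the last 100 bp had 41.1% and 11.6%. Inside the dense tile, the 100 bp nearest to a shore averaged 3.04% and 1.67%. Relative to Dnmt1+/+, the Dnmt1-/- mean was at 43.5% in the first 100 bp, at 32.1% in the second and between 21.7% and 28.5% in the 8 bins further out. The 43.5% also rests on low means. The share of CpGs called lower went from 4.76% in the first 100 bp to 48.6% at 801 to 900 bp. In the last 3 bins it lay between 42.4% and 48.6%, near the 44.1% of all autosomal CpGs.

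**Figure D1:**
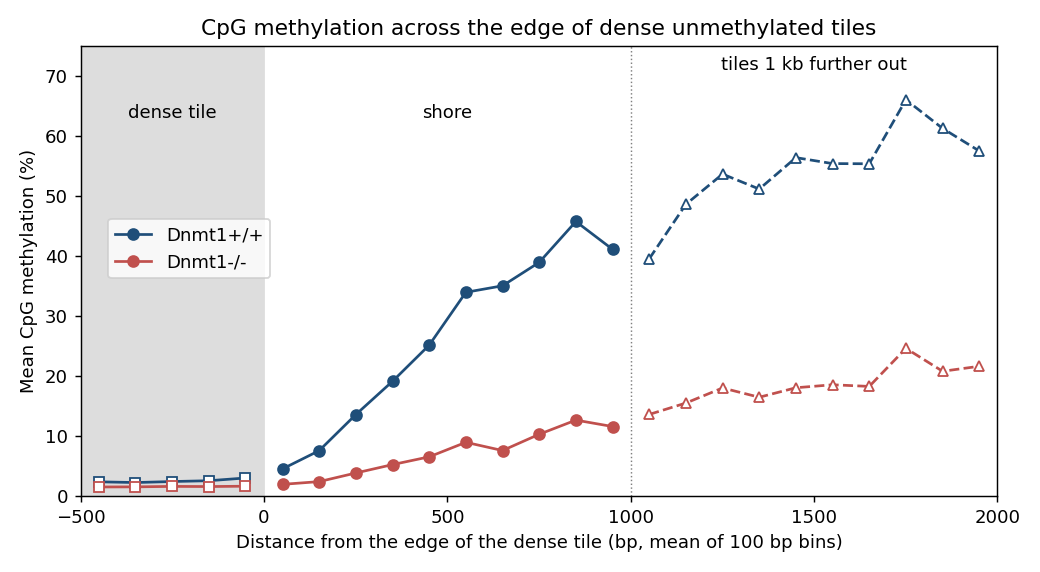
Mean CpG methylation (%) against distance (bp) from the edge of the dense unmethylated tile, in bins of 100 bp, for the Dnmt1+/+ and Dnmt1-/- libraries, with negative distances inside the dense tile and distances over 1000 bp in the tile beyond the shore. The Dnmt1+/+ line climbs from 4.55% in the first 100 bp of the shore to 45.8% at 801 to 900 bp, and the Dnmt1-/- line from 1.98% to 12.7%.

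Different shores contribute to different distances, so the gradient was also read within single shores. In 396 shores with CpGs in both the inner 300 bp and the outer 300 bp, the Dnmt1+/+ mean went from 11.3% in the inner to 50.8% in the outer part, and the Dnmt1-/- mean from 3.33% to 11.6%. In Dnmt1+/+ the outer part was higher by at least 10 points in 253 of these shores and lower by as much in 6. In Dnmt1-/- the corresponding counts were 102 and 9. A step of at least 50 points was seen in 162 shores in Dnmt1+/+ and in 20 in Dnmt1-/-.

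The position at which methylation first reached 50% was compared over the 2585 shores with at least 5 CpGs outside CCGG and TCGA. In Dnmt1+/+, 543 of them (21.0%) had a CpG at 50% or more, and in Dnmt1-/- 113 (4.37%) had one. Such a CpG was found in both libraries in 96 shores, in Dnmt1+/+ alone in 447 and in Dnmt1-/- alone in 17. In the 96 shores its median distance from the dense tile was 477.5 bp in Dnmt1+/+ and 514.5 bp in Dnmt1-/-. It lay further out in Dnmt1-/- in 46 of these, at the same CpG in 41 and nearer in 9.

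Sequence changed over the same distances. CpGs per kb of genome sequence fell from 68.3 in the first 100 bp to 15.9 in the last, and GC content from 61.4% to 46.4%. Over whole tiles, shores had 32.4 CpGs per kb and 51.0% GC, against 84.1 and 63.9% in dense tiles and 21.0 and 48.7% in far tiles. The measured CpGs were 32% of the CpGs present in the shores and 56.4% of those in dense tiles. The part of CpG density in the methylation profile was not tested.

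Shores differed widely among themselves in Dnmt1+/+ and little in Dnmt1-/-. Among the 2585 shores, tile means in Dnmt1+/+ had a median of 3.55% (quartiles 1.44 and 11.2%) and reached 99.2%. In Dnmt1-/- the median was 1.26% (quartiles 0.652 and 2.78%) and the highest was 83.5%. A difference of 25 points or more was seen in 257 shores (9.94%) with a lower and in 9 (0.348%) with a higher mean in Dnmt1-/-, against 48.0% and 0.338% of all 44385 autosomal tiles with as many CpGs. The median difference was -2.11 points, and 2017 shores were within 10 points. Of the 174 shores at 50% or more in Dnmt1+/+, 160 were lower by at least 25 points. The count of 257 depended on the filters. It was 654 of 3846 shores with all CpGs, 125 of 1949 at a depth of at least 20, and 593 of 3569 with at least 3 CpGs per shore.

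**Figure D2:**
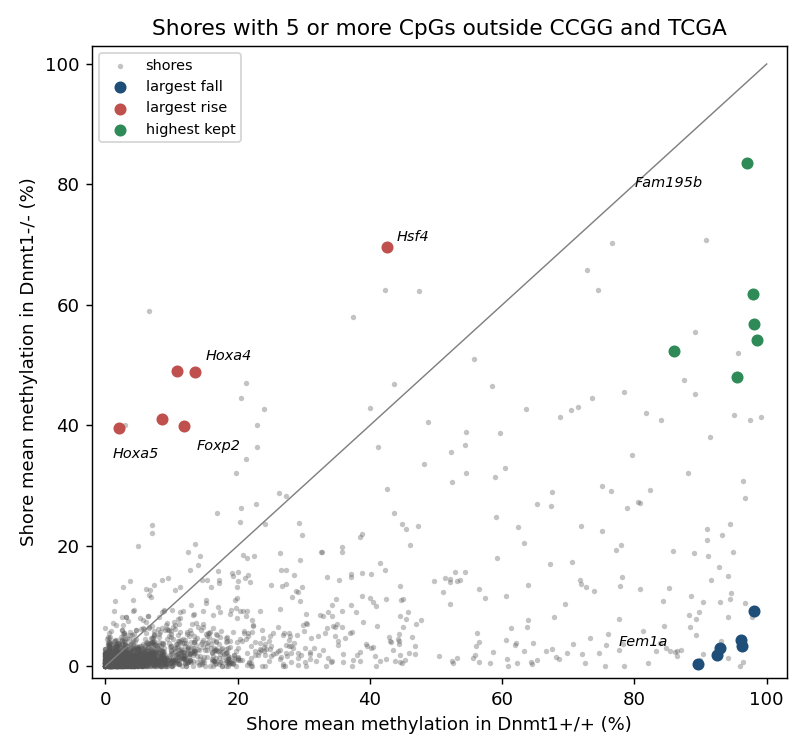
Mean methylation of each of the 2585 shores in Dnmt1+/+ (x axis, %) and Dnmt1-/- (y axis, %), each point being 1 shore and the line marking equal values. Most points lie near the origin, and the marked shores are the 6 largest falls (bottom right), the 6 largest rises (above the line) and the 6 highest remaining levels among the 2179 eligible for naming.

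Shores could be grouped by their Dnmt1+/+ mean. A total of 2171 shores (84.0%) were at 20% or less, and 2159 of them were so in Dnmt1-/- too. The 340 shores (13.2%) between 20 and 80% averaged 11.7% in Dnmt1-/-, where 277 were at 20% or less. The 74 shores (2.86%) at 80% or more had a median of 11.9% in Dnmt1-/- (quartiles 4.01 and 30.3%), and 47 of them were at 20% or less. The 15443 far tiles at 80% or more had a median of 32.3% (quartiles 17.4 and 50.4%) and 29.7% of them were at 20% or less.

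Highly methylated CpGs, at 80% or more in Dnmt1+/+, kept less methylation in shores than far from dense tiles. There were 1772 of them in shores, with a mean of 20.8% and a median of 11.3% in Dnmt1-/- (quartiles 2.70 and 31.6%). The 2193 in the next tile had a mean of 29.3% and a median of 23.5%, and the 211399 in far tiles 33.8% and 28.6%. The 280 such CpGs inside dense tiles had a mean of 17.6% and a median of 10%, so the low level was not particular to shores. On pooled calls the Dnmt1-/- values were 20.5% (interval 20.2 to 20.8%) in shores and 34.2% (34.1 to 34.2%) in far tiles, at median depths of 26 calls in both. Fisher's test called 93.2% of the highly methylated shore CpGs lower, against 88.1% of all such autosomal CpGs and 87.2% of those in far tiles. No test across libraries was possible with 1 library per genotype, so the difference between shores and far tiles is a description of this pair of libraries.

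The difference was seen on each of the 19 autosomes, where the shore means were between 15% and 29.4% and the far means between 31.6% and 36.6%, with 37 to 180 shore CpGs per chromosome. It was also seen at tiles with like numbers of measured CpGs. In tiles of 5 to 9 CpGs the Dnmt1-/- means were 19.5% in shores and 32.9% in far tiles, and in tiles of 15 to 19 CpGs they were 23.7% and 37.5%. It was smaller at lower Dnmt1+/+ levels. CpGs at 40 to 60% in Dnmt1+/+ averaged 12.3% in shores and 13.5% in far tiles, and CpGs at 90% or more averaged 22.3% and 36.8%. When CpGs in CCGG or TCGA were counted in, the order was turned, with 52.2% in shores and a far minus shore difference of -5.14 points. In shores these sites averaged 61.0% in Dnmt1+/+ and 53.3% in Dnmt1-/-.

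**Figure D3:**
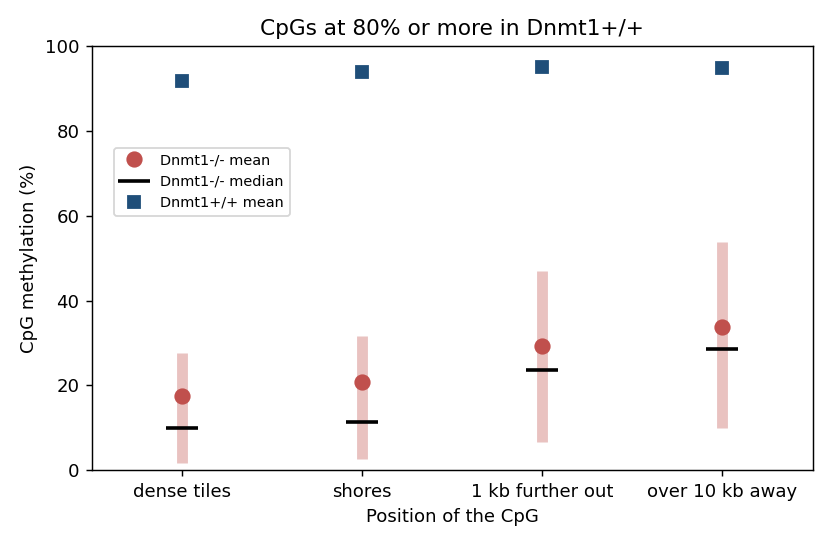
Methylation (%) of CpGs at 80% or more in Dnmt1+/+, outside CCGG and TCGA, by type of tile, with squares for the Dnmt1+/+ mean, circles for the Dnmt1-/- mean, dashes for the Dnmt1-/- median and bars from the lower to the upper quartile in Dnmt1-/-. Shore CpGs have a median of 11.3%, below 23.5% in the next tile and 28.6% in far tiles, and dense tiles have 10%.

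Not all flanks of CpG-rich DNA had low Dnmt1-/- values. The 485 tiles of 5 to 19 CpGs beside tiles of at least 30 CpGs with a median over 10% in Dnmt1+/+ averaged 43.6% and 22.0%. Their 938 highly methylated CpGs averaged 46.9% in Dnmt1-/-, against 20.8% in shores.

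Within the shores, the mean in Dnmt1-/- of highly methylated CpGs was 28.5% in the first 100 bp (75 CpGs). It lay between 15.2% and 23.8% in the 9 bins further out, with the lowest value at 601 to 700 bp. By genomic annotation, in classes that do not overlap, 81.2% of shore CpGs lay within 1 kb of an annotated transcription start. Of the CpGs further from a start, introns held 9.09% of shore CpGs, stretches between genes 5.87% and exons 3.83%. CpGs near a start, exonic ones included, averaged 9.84% in Dnmt1+/+ and 2.91% in Dnmt1-/-. Exonic CpGs further from a start had the highest means, 36.6% and 11%. For highly methylated CpGs, shore against far values in Dnmt1-/- were 19.7% and 36.4% near starts, 19.7% and 37.3% in introns, 23.3% and 41.9% in exons, and 24.4% and 27.0% between genes.

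Shores were next sorted by the direction of the protein-coding gene that starts in the dense tile or in the run of dense tiles it belongs to. The 1050 shores upstream of the start averaged 17.3% in Dnmt1+/+ and 4.93% in Dnmt1-/-. The 1327 shores downstream, on the side of the gene body, averaged 13.0% and 3.55%. At 401 to 600 bp from the dense tile, upstream CpGs averaged 38.3% and downstream CpGs 26.7% in Dnmt1+/+, and 9.71% and 6.72% in Dnmt1-/-. In the outermost 200 bp Dnmt1+/+ showed the opposite order, with 46.3% upstream and 53.3% downstream, but Dnmt1-/- did not, with 16.0% and 11.3%. Where the start lay in the shore itself (852 shores), the means were 8.22% and 2.77%. The 227 shores of runs with starts on both strands averaged 14.5% and 2.80%, and the 12 between dense tiles 3.21% and 1.18%. The 378 shores of dense runs without a protein-coding start had the highest means, 19.1% and 7.12%.

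**Figure D4:**
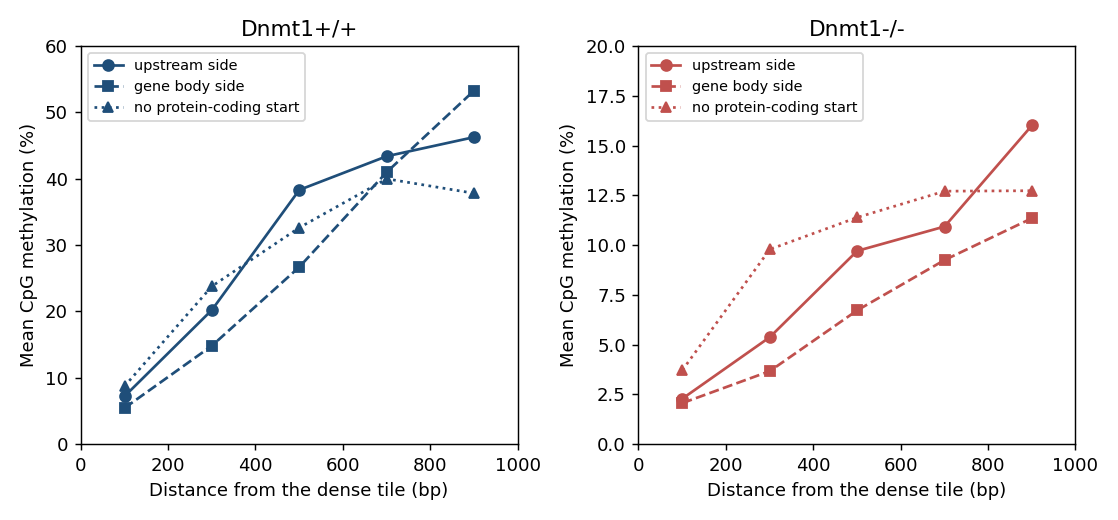
Mean CpG methylation (%) by distance (bp) from the dense tile, in bins of 200 bp, for shores upstream and downstream of a protein-coding start and for shores of dense runs with no such start, in Dnmt1+/+ and Dnmt1-/-. In Dnmt1+/+ the upstream line is above the downstream line up to 800 bp and below it in the last bin.

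Both shores of a dense run could be read in 218 runs. In Dnmt1+/+ both were at 20% or less in 141 runs, one of them was above 20% in 64 and both in 13. Across these runs the levels of both shores had a Pearson's r of 0.083 in Dnmt1+/+ and 0.45 in Dnmt1-/-, as a description over runs of the same libraries.

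The largest changes and levels were ranked among the 2179 shores with at least 100 calls in each library and a protein-coding start near the dense tile, and differences over all 2585 shores ran from -96 to 52.3 points. The 6 largest falls among the 2179 left between 0.303% and 9.19% in Dnmt1-/-. The shore of Fem1a, a subunit of ubiquitin ligases that recognises substrates (chr17:56397001-56398000), had 12 CpGs between 38.2 and 100% in Dnmt1+/+ and between 0 and 3.64% in Dnmt1-/-. Its mean went from 89.6% to 0.303%, all 12 CpGs were called lower, and the pooled intervals were 86.2 to 92.4% and 0.127 to 1.67%. The shore of Pmm2, an enzyme that makes mannose phosphate for protein glycosylation (chr16:8636001-8637000), went from 96.3% to 3.33% over 5 CpGs. The shores of Arl6ip4 (96.2% to 4.31%), Cstf2t, a factor for the cleavage of mRNA 3′ ends (92.9% to 3.04%), Cnih, a cargo receptor of the secretory pathway (92.5% to 1.93%), and Gnal, a G protein subunit of olfactory neurons (98.1% to 9.19%), completed the 6 largest. Every CpG outside CCGG and TCGA measured in these 6 shores was called lower.

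Fem1a and Cnih were also among the 6 lowest Dnmt1-/- means of the 56 eligible shores at 80% or more in Dnmt1+/+. The others were Rpl35, a protein of the large ribosomal subunit (82.1% to 0.541%), Tbc1d15, which acts on Rab GTPases (86.4% to 1.74%), Fam89b (90.4% to 2.06%) and Pcif1, a partner of RNA polymerase II (86.2% to 2.32%). The Tbc1d15 shore (chr10:114687001-114688000), part of which is printed above, lay on the gene body side, and its 8 CpGs were between 57.1 and 97.9% in Dnmt1+/+ and between 0 and 9.30% in Dnmt1-/-.

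The highest Dnmt1-/- mean of these 56 shores was found at Fam195b (chr11:120412001-120413000), which went from 97.1% to 83.5% over 7 CpGs, of which 1 was called lower. Pooled intervals were 93.4 to 98.7% and 77.1 to 88.6%. The shore of Pcyt2, an enzyme of phosphatidylethanolamine synthesis (chr11:120480001-120481000), kept 56.8% against 98.2% over 13 CpGs, with single CpGs between 33.3 and 82.0% in Dnmt1-/-. Coro6, a coronin of the actin cytoskeleton, kept 61.7% on average over 6 CpGs, which ranged from 7.04 to 92.3%. Eno2, the neuronal enolase, kept 54.1%, Pmaip1, a p53 target that promotes apoptosis, 52.3%, and Tram2, a protein of the translocation machinery of the endoplasmic reticulum, 48.1%. These 6 were all lower than in Dnmt1+/+, where they were between 86.0% and 98.5%.

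**Figure D5:**
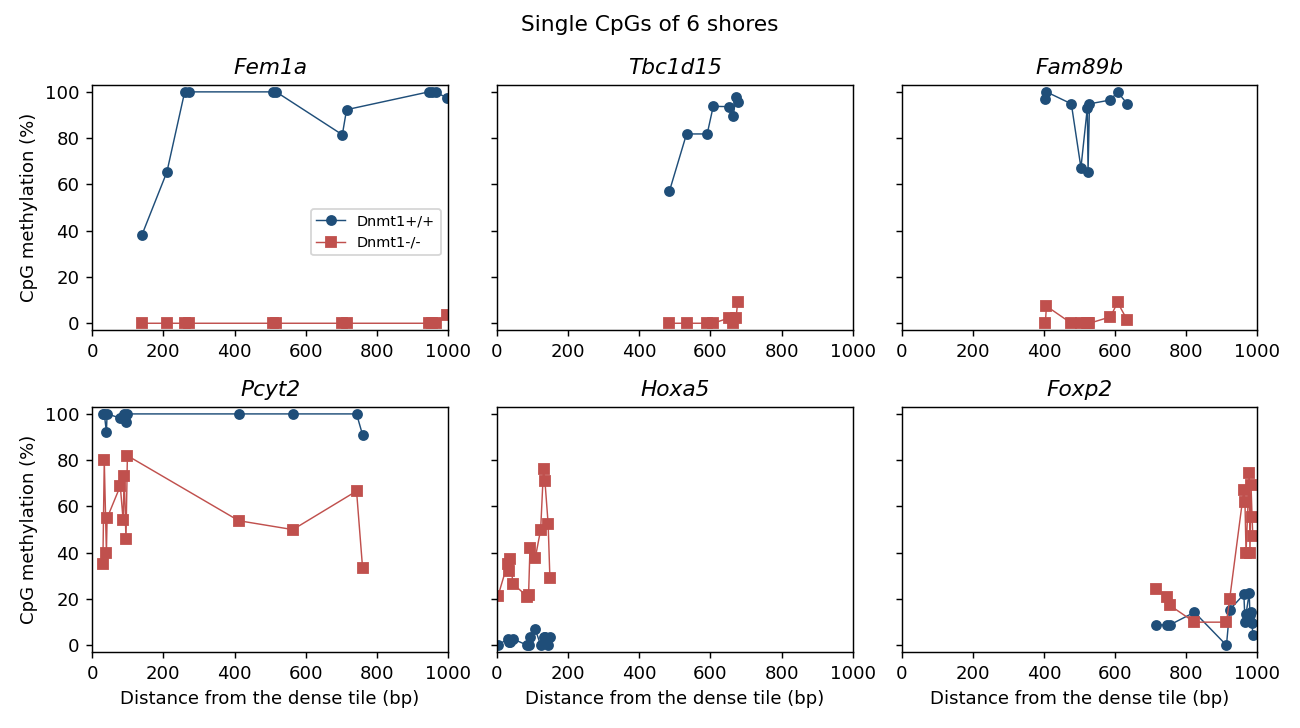
Methylation (%) of single CpGs against distance (bp) from the dense tile in 6 shores, with circles for Dnmt1+/+ and squares for Dnmt1-/-. The Fem1a, Tbc1d15 and Fam89b shores are near 0% in Dnmt1-/-, the Pcyt2 shore lies between 33.3 and 82.0%, and the Hoxa5 and Foxp2 shores are higher in Dnmt1-/-.

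Among the 6 largest rises of these 2179 shores, the shore of Hoxa5, a homeobox transcription factor of body patterning (chr6:52153001-52154000), went from 2.07% to 39.6%. Its 14 CpGs were between 0 and 6.90% in Dnmt1+/+ and between 21.1 and 76.3% in Dnmt1-/-, all 14 were called higher, and they lay within 149 bp of the dense tile. The shore of Hoxa4, in the same cluster (chr6:52140001-52141000), went from 13.6% to 48.8%, with 8 of 8 CpGs called higher. Another shore of Hoxa4, upstream of its start (chr6:52142001-52143000), moved the other way, from 14.2% to 0.222%, with 5 of 9 called lower. A shore of Hoxb2 (chr11:96215001-96216000) went from 8.56% to 41.0%, with 9 of 10 called higher, and another Hoxb2 shore went from 7.03% to 23.5%, with 2 of 9 called higher. Pooled intervals for the 3 Hox shores among the 6 largest rises did not overlap between libraries.

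The shore of Foxp2, a forkhead transcription factor (chr6:14850001-14851000), averaged 11.9% in Dnmt1+/+ and 39.8% in Dnmt1-/- over 14 CpGs. The 8 CpGs called higher were those furthest from the dense tile, at 962 to 987 bp, where Dnmt1-/- values reached 74.5%. The shore of Cdo1, the cysteine dioxygenase, went from 10.9% to 49.1% over 8 CpGs, of which 4 were called higher, and that of Hsf4, a heat shock transcription factor, from 42.5% to 69.6%, with 7 of 8 called higher. The Hsf4 shore on the gene body side was at 76.7% and 70.3%.

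In all, 23 of the 2585 shores (0.890%) were higher by at least 10 points, near the 0.955% of all autosomal tiles with as many CpGs. Of these 23, 16 had a protein-coding start within 2 kb of the dense tile or in it. The largest rise of all, from 6.67% to 59.0% over 5 CpGs at chr2:17948001-17949000, had no protein-coding start within 2 kb of its dense tile.

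Shores were also counted by 5 lists of genes, with the gene that starts nearest to the dense tile. Developmental transcription factors had 58 shores at 48 genes. Of these, 7 (12.1%) were at least 10 points higher in Dnmt1-/-, against 0.890% of all shores, and 3 (5.17%) fell by 25 points or more, against 9.94%. Most of the 7 lay in Hox clusters, at Hoxa4, Hoxa5, Hoxb2 (both shores) and Hoxd9, and the others at Foxp2 and Lhx6. Other Hox shores, such as those of Hoxa11, Hoxc13 and Hoxd8, did not rise. The median of the 58 shores was 6.42% in Dnmt1+/+ and 1.99% in Dnmt1-/-, against 3.55% and 1.26% over all shores. Of the 58, 10 (17.2%) exceeded 20% in Dnmt1-/-, against 3.95%. Dlx6, a homeobox gene, had similar values in both libraries, with 72.8% (interval 64.0 to 80.1%) in Dnmt1+/+ and 65.9% in Dnmt1-/- (65.7%, 57.6 to 73.0% on pooled calls). The Hoxc13 shore, with the most CpGs of this list, was low in both libraries, with 6.80% and 1.73%. The list's genes include those of families known from earlier results of these data, so its count is not independent evidence.

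Shores of the housekeeping list, here at genes for cytoplasmic and mitochondrial ribosomal proteins, translation initiation factors and their regulators, RNA polymerase subunits and respiratory chain proteins, numbered 40. Of these, 8 (20%) fell by 25 points or more, against 9.94% of all shores, and 0 gained 10 points, against 0.890%. Among the 8 were Ndufb2, a subunit of respiratory complex I (96.7% to 10.6%), and Rpl35. The median shore of this list was at 2.54% in Dnmt1+/+ and 1.20% in Dnmt1-/-, and Cox5a stood at 1.06% and 0.693%. Of 14 shores of fibroblast matrix and cytoskeleton genes, 2 (14.3%) were lower by 25 points or more, near the 9.94% of all shores, and the shore of Actb, the cytoplasmic actin, went from 45.4% to 1.07%. The Mmp24 shore was at 3.83% and 1.34%. Of 16 shores of signalling ligands and receptors, 1 (6.25%) was lower by as much, also near that share, and 0 were higher by 10 points, and Fzd9 was at 1.14% and 0.953%. Genes of the DNA methylation machinery had 0 shores with enough CpGs.

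Values next to the limits of the rule are given as a description. Dense tiles with 30 CpGs averaged 3.23% in Dnmt1+/+ and 1.75% in Dnmt1-/-, and tiles with 29 CpGs and the same limit on the median 3.18% and 2.14%. Tiles of at least 30 CpGs with a median over 8 to 10% averaged 9.72% and 5.48%, and those over 10 to 12% 11.2% and 6.39%. Shores with 5 CpGs averaged 30.4% and 7.49%, and neighbours with 4 CpGs 35.6% and 7.67%. Shores with 19 CpGs averaged 7.61% and 2.39%, and neighbours with 20 CpGs 7.75% and 3.87%.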

How the data were processed

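RRBS libraries were made and processed by a sequencing provider. The submitters' processing notes name Bismark and mm9, and versions and conversion rate are not given in the sources used here. The authors kept CpGs with at least 10 calls in both libraries and deposited, for each CpG, a percent methylation and a count of calls. The deposited percent times depth gave whole methylated counts (within 1e-06) at 100% of CpGs. CpGs were counted once in means, and Wilson intervals (95%) are on pooled calls. They treat every call as independent, although neighbouring CpGs of a tile share reads, so they are too narrow. Since reads carried no molecular identifiers, PCR copies were not removed by molecule. These intervals and the limits from 0 calls therefore describe at most counting error. CpGs were compared by two-sided Fisher's exact tests with Benjamini-Hochberg adjustment over all 1790826 CpGs (threshold 0.05), which compares the libraries and not the genotypes, and the test was checked on simulated data. A tile difference of 25 points counted as a change, without a test, since neighbouring CpGs of a tile share reads.

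Gene starts came from GENCODE on NCBIM37, and positions are 1-based. Promoter-proximal meant within 1 kb of a start. Shores eligible for ranking had at least 5 CpGs outside CCGG and TCGA, 100 calls in each library and a protein-coding start within 2 kb of the dense neighbour (2179 shores). The 6 largest falls, the 6 largest rises, the 6 highest and 6 lowest Dnmt1-/- means among those at 80% or more in Dnmt1+/+, and the shore with the most CpGs of each list were named. Other shores of Hoxa4, Hoxb2 and Hsf4, and those of Dlx6, Ndufb2 and Actb, were added after their values were seen. The members and lists were chosen with earlier results of these data known. Analyses used scipy 1.17.1, pandas 2.3.3, numpy 2.4.6, pysam 0.24.0, numba 0.67.0, matplotlib 3.10.9 and python 3.11.15. The other data types of the study were not analysed here.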

Additional observations from a re-analysis of the deposited data

How the results depend on the processing

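The spread between libraries of 1 genotype could not be measured. No paired analysis was possible because there was 1 library per genotype. The main means were 13.4% in Dnmt1+/+ and 3.97% in Dnmt1-/-, and the shore mean was lower in Dnmt1-/- under every alternative run. With all CpGs, those in CCGG and TCGA included, the means were 28.5% and 19.6%, higher calls 267, lower and higher tiles 654 and 5, the Dnmt1+/+ mean 15.4% at 1 to 100 bp and 57.8% in the outermost 200 bp, where the Dnmt1-/- mean was 31.2%, highly methylated CpGs 52.2% in Dnmt1-/-, and far minus shore -5.14 points, the reverse of 13.0 points. A depth of at least 20 gave means of 10.9% and 3.44%, 125 lower tiles, and 3.92% and 40.1% in Dnmt1+/+ at the near and far end. Dense tiles of at least 40 CpGs gave 12.5%, 2486 lower CpGs, 159 lower tiles and 46.4% at the far end in Dnmt1+/+. A median of 5% or less gave 12.6% and 3.36%, 82 higher CpGs, 3 higher tiles, and 3.81% and 47.0% at the near and far end. Pooled calls gave 9.95% and 3.27%. Higher calls were 99 at an adjusted p under 0.01, 85 with a difference of 25 points and 12 after thinning to 10 calls, which left 1568 lower. A tile difference of 50 points left 118 lower and 1 higher tile, and at least 3 CpGs per tile gave 593 lower. Distance from the nearest measured CpG of the dense tile gave 3.61% and 40.6% in Dnmt1+/+ and 10.3% in Dnmt1-/-. A shifted grid, shores with a dense tile on 1 side and removal of very deep CpGs moved no count by more than 1.5 times. Under them no mean left an interval in which each CpG counted as 1 call. That interval is wider than those on pooled calls. The shifted grid gave shore means of 13.6% and 4.02%, highly methylated CpGs 22.1% in Dnmt1-/-, and far minus shore 11.7 points. Far minus shore within classes of CpG number, and at 90% or more in Dnmt1+/+, was added after seeing the data and lay between 13.3 and 14.6 points. Counts fell in part because fewer CpGs or tiles entered. The cause of the remaining changes was not tested. Of the single shores named, 57 values stayed within counting error under an alternative, 21 moved and 0 reversed.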

Other observations

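Chromosome X was outside the rule. The 48 tiles of 5 to 19 CpGs beside its dense unmethylated tiles averaged 9.11% in Dnmt1+/+ and 3.87% in Dnmt1-/- over 334 CpGs outside CCGG and TCGA. The 110 dense tiles themselves averaged 2.73% in Dnmt1+/+ and 3.97% in Dnmt1-/-, whereas autosomal dense tiles averaged 2.61% and 1.53%.

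Highly methylated shore CpGs differed with the bases beside the CG. In Dnmt1-/- the means ran from 14.1% for ACGA (69 CpGs) to 28.3% for GCGC (182 CpGs), and in far tiles from 27.3% for TCGT to 42.8% for GCGC. ACGC and GCGT are the same sequence read from opposite strands. In shores they still differed, with 16.8% (162 CpGs) and 24.0% (168 CpGs), against 36.1% and 35.5% in far tiles.

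The run agtgctgggattaaag, seen in the Cnih stretch and searched on both strands after that stretch had been seen, occurred in 236 shores (6.14%), in 1.09% of dense tiles, in 14.3% of the next tiles and in 10.1% of far tiles. Shores with the run averaged 37.0% in Dnmt1+/+, and those without it 12.3%. Their highly methylated CpGs averaged 18.9% in Dnmt1-/- with the run (322 CpGs) and 21.3% without it (1450 CpGs). The order was turned in the next tiles, with 32.5% and 28.8%, and in far tiles, with 36.4% and 33.6%.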
